A study of Mus musculus with 5 samples.

Results

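The genes described here were 10 members of the BCL2 family, chosen by symbol in the GENCODE annotation of the mouse assembly GRCm38 out of 21755 protein-coding genes. They were the 3 *Bcl2a1* copies (*Bcl2a1a*, *Bcl2a1b* and *Bcl2a1d*), *Bcl2*, *Bcl2l1*, *Mcl1*, *Bax*, *Bak1*, *Bcl2l11* and *Bid*. The *Bcl2a1* copies were picked because the promoter of *Bcl2a1a* was already known to be more methylated without *Tet2* in these libraries, so their levels are a description and carry no test. CpG methylation was read by whole-genome bisulfite sequencing, in which unmethylated cytosines are converted and read as T while methylated cytosines are still read as C. The samples were acute myeloid leukemia (AML) blasts from the bone marrow of C57BL/6 mice, 2 of them Cebpa-/p30 Tet2+/+ (libraries 23 and 24) and 3 Cebpa-/p30 Tet2-/- (libraries 5, 7 and 8).

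All 5 leukemias thus shared the *Cebpa* lesion, a deleted allele opposite an allele that makes only p30, the short form of the transcription factor CEBPA. *Tet2* encodes a dioxygenase that oxidises methylated cytosine. According to the methods of the study, floxed alleles were deleted by Mx1-Cre after poly(I:C) in marrow transplanted into irradiated congenic (C57BL/6 J.SJL) hosts, and the blasts were sorted as CD45.2+ cells without CD3, B220 and Ter119. Mx1-Cre acts in many blood and other cells and not in blasts alone. Each library came from 1 mouse. The methods give the age of the female hosts at transplantation, but not that of the leukemic animals when the blasts were taken. Whether libraries of a genotype shared donor marrow is not stated in the sources used here.

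Proteins of the BCL2 family decide at the outer mitochondrial membrane whether a cell enters apoptosis. The guardians BCL2, BCL-XL (from *Bcl2l1*), MCL1 and A1 (from the *Bcl2a1* genes) hold back BAX and BAK1, which open the membrane, while BH3-only proteins such as BIM (from *Bcl2l11*) and BID set BAX and BAK1 free. The mouse carries several near-identical *Bcl2a1* genes, and A1 and MCL1 are known as survival proteins of myeloid cells. CpGs in active or poised CpG island promoters are usually unmethylated, whereas CpGs inside genes are usually methylated.

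The copies lay on chromosome 9 of GRCm38. *Bcl2a1d* ran on the minus strand at chr9:88723285-88731914, *Bcl2a1a* on the plus strand at chr9:88956900-88962419 and *Bcl2a1b* on the plus strand at chr9:89199209-89207827. Their transcription start sites (TSS) were 224986 bp and 242309 bp apart. Within 1000 bp of the TSS, *Bcl2a1a* and *Bcl2a1b* were 95.0% identical, *Bcl2a1a* and *Bcl2a1d* 95.3%, and *Bcl2a1b* and *Bcl2a1d* 99.1%. The following 30 bases at the start, read 5′ to 3′ along each gene from the GRCm38 reference and aligned between the copies, are shown because they let the CpGs at the start of *Bcl2a1a* and *Bcl2a1b* be compared between the copies. The matching bases of *Bcl2a1d* lie 24 to 53 bp into that gene, whose annotated start is further upstream, so equal distances from the start are not matching bases in *Bcl2a1d*. The stretch of *Bcl2a1a* had 3 calls in Tet2+/+ and 6 in Tet2-/-, too few to give its level. Capitals mark each CpG, and the matching stretch of *Mcl1*, a CpG island promoter, is given for contrast.
Bcl2a1a, chr9:88956880-88956909, plus strand: acCGcccatgcacataagtgaCGagaagga
Bcl2a1b, chr9:89199189-89199218, plus strand: acCGcccaCGcacataagtgaCGagaagga
Bcl2a1d, chr9:88731861-88731890, minus strand: acCGcccaCGcacataagtgaCGagaagga
Mcl1, chr3:95658768-95658797, plus strand: aCGgccttcctcactcctgacttcCGcctg
Over the whole window of 1000 bp on each side of the TSS, the promoter used below, *Bcl2a1a* had 21 CpGs, *Bcl2a1b* 25 and *Bcl2a1d* 23. The promoters of the other 7 members had 46 to 163, and the median promoter of all genes 70.

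Before the members, the libraries themselves were compared. Calls on the autosomes and the X chromosome numbered between 63111735 and 110752967 per library, or 2.96 to 5.19 per CpG, so the level of a single CpG rests on few calls and regions are read as sums. A run of 36 CpGs in *Tet2* (chr3:133466411-133468351) had 128 and 151 calls in the Tet2+/+ libraries and 0 in each Tet2-/- library, a check of the genotype labels. The level over all CpGs was 67.3% and 62.3% in Tet2+/+ and 70.9%, 74.8% and 68.4% in Tet2-/- libraries 5, 7 and 8. Promoters of myeloid marker genes were low (medians of 5.18% to 13.1% over 8 genes), those of B, T and NK cell genes were at 48.0% to 87.1%, and those of 4 erythroid genes at 19.7% to 31.4%, and all 5 of these marker lists had their highest median in a Tet2-/- library. In bulk DNA, a different mix of cells and a different methylation of the same cells cannot be told apart.

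The *Bcl2a1a* promoter (chr9:88955900-88957900) was at 16.7% in Tet2+/+ library 23 and 6.25% in library 24. In the Tet2-/- libraries it was at 71.4%, 87.2% and 73.2% in libraries 5, 7 and 8. Tet2+/+ averaged 11.5% ± 7.4 (SD, n = 2), Tet2-/- averaged 77.3% ± 8.7 (SD, n = 3), and the difference of 65.8 points rests on 32 to 56 calls per library. Among all 19455 promoters with at least 20 calls in every library, no other had a larger difference, which is how the gene came to be chosen.

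*Bcl2a1b* (promoter chr9:89198209-89200209) read 3.70% and 12.1% in the Tet2+/+ libraries. It read 60%, 52.6% and 66.7% in Tet2-/- libraries 5, 7 and 8. Tet2+/+ libraries averaged 7.9% ± 6.0 (SD, n = 2). Without *Tet2* the average was 59.8% ± 7.0 (SD, n = 3), 51.9 points higher. The annotated gene *Gm29094* starts within the same stretch, so the values of the pair come largely from the same CpGs.

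*Bcl2a1d* (promoter chr9:88730914-88732914) read 6.90% and 16.7% in the Tet2+/+ libraries. The Tet2-/- values were lower than in the other copies, at 22.1%, 40.8% and 39.1% in libraries 5, 7 and 8. Here Tet2+/+ averaged 11.8% ± 6.9 (SD, n = 2) and Tet2-/- 34.0% ± 10.4 (SD, n = 3), 22.2 points higher. On these pooled levels each Tet2-/- library had *Bcl2a1a* above *Bcl2a1b* and *Bcl2a1b* above *Bcl2a1d*. With each CpG a library called weighed equally, the genotypes differed by 59.2 points in *Bcl2a1a*, 60.4 in *Bcl2a1b* and 17.6 in *Bcl2a1d*. The CpGs called were not the same in each library. On the pooled calls of the CpGs called in all 5 libraries, the differences were 71.7, 42.6 and 17.1 points.

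All 3 copies had every Tet2-/- library above both Tet2+/+ libraries, a pattern that 32.8% of all promoters showed, and that the choice of the copies favours. The other 7 members were taken by gene symbol, though with earlier results of these data known. Of their promoters 0 had this pattern and 3 had the opposite one, which 4.05% of all promoters showed. The differences of these 3 were small, at -1.45 points in *Bcl2*, -2.77 in *Bcl2l1* and -1.52 in *Bid*. With each CpG a library called weighed equally they were -0.164, 0.636 and -0.916 points.

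**Figure D1:**
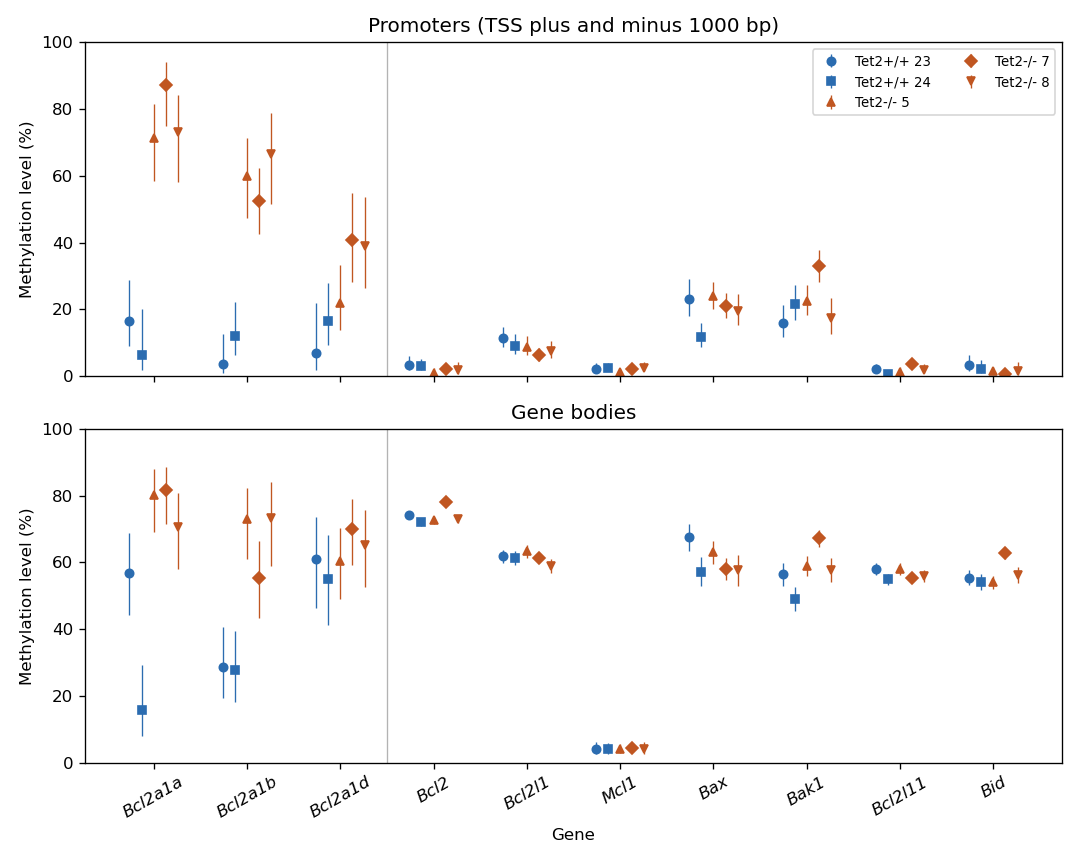
Methylation level (%) of the promoter (top) and gene body (bottom) of each member; each point is 1 library, bars are 95% Wilson intervals, blue is Tet2+/+ (libraries 23 and 24) and orange is Tet2-/- (libraries 5, 7 and 8), and the grey line divides the *Bcl2a1* copies from the other 7 members. The Tet2-/- points of the copies lie above the Tet2+/+ points in all 3 promoters, from 65.8 points apart in *Bcl2a1a* to 22.2 in *Bcl2a1d*, whereas the other promoters stay between 0.701% and 32.9%.

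The difference was not even along the copies. Within 100 bp of the TSS, *Bcl2a1a* had 0 methylated calls of 5 in Tet2+/+ and 0 of 11 in Tet2-/-. *Bcl2a1b* had 0 of 21 and 2 of 53, both methylated calls being at 1 CpG in library 7, and *Bcl2a1d* had 0 of 17 and 0 of 46. The start sequences printed above lie in this stretch, where 0 calls allow up to 60% in Tet2+/+ and 27.3% in Tet2-/- for *Bcl2a1a*, but 17.6% and 6.52% for *Bcl2a1d*. The same stretch of *Mcl1* gave 0 of 150 and 2 of 449.

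The flanks differed. From 1000 to 101 bp upstream, *Bcl2a1a* was at 9.30% and 7.69% in Tet2+/+ and at 71.4%, 91.9% and 85.7% in Tet2-/-. *Bcl2a1b* was at 0% and 21.7% against 52.0%, 76.9% and 85.0%. *Bcl2a1d* was at 0% and 6.06% against 18.8%, 36.4% and 38.9%. No copy had overlapping groups in this sum. How many genes show this pattern in that stretch was not counted, and the choice of the copies favours it. In the outer part of the stretch, from 1000 to 501 bp, *Bcl2a1b* overlapped (0% and 31.3% against 28.6%, 75% and 66.7%). So did *Bcl2a1d* (0% and 0% against 33.3%, 0% and 40%).

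Downstream of the start the copies differed from each other. From 101 to 500 bp into the gene, *Bcl2a1b* had 4 methylated of 51 calls in Tet2+/+ and 40 of 47 in Tet2-/-. *Bcl2a1d* had 0 of 14 and 17 of 36, and *Bcl2a1a* 0 of 5 and 7 of 7, since 4 of its 5 CpGs there had no call. From 501 to 1000 bp, *Bcl2a1d* was methylated in both genotypes, with 10 of 10 and 19 of 20 calls, while *Bcl2a1b* had 1 of 4 and 12 of 13. *Bcl2a1a* had 5 of 7 there, all in library 23, and 11 of 12.

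Single CpGs showed the same. In *Bcl2a1b* the CpG 162 bp after the start had 1 of 11 and 14 of 17. In *Bcl2a1d* the best covered CpG, 207 bp after the start, had 0 of 12 and 14 of 31. A CpG at -685 bp of *Bcl2a1b* was an exception, with 0 of 7 and 1 of 16.

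**Figure D2:**
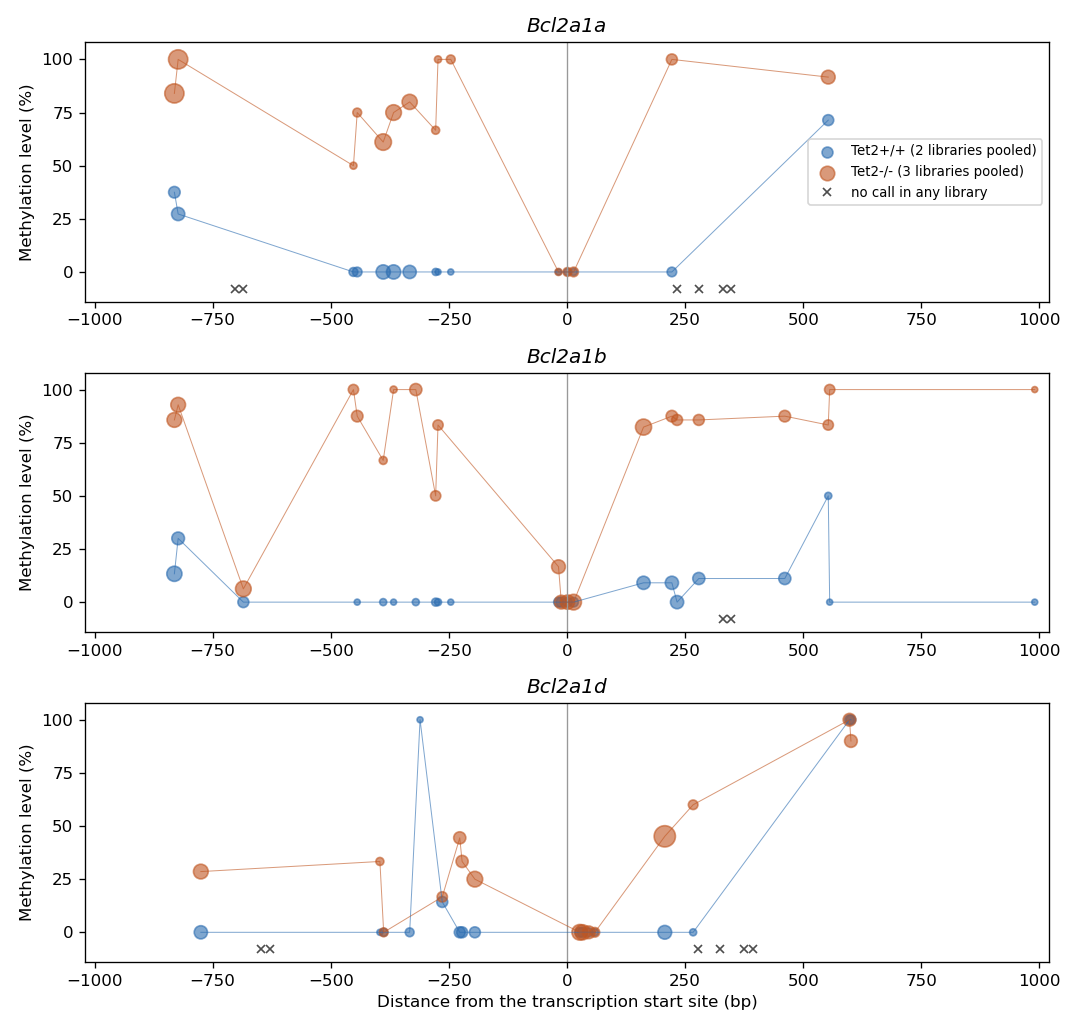
Methylation level (%) of each CpG against its distance (bp) from the start of the 3 *Bcl2a1* copies, calls pooled over the 2 Tet2+/+ (blue) and 3 Tet2-/- (orange) libraries; point area grows with the number of calls, and crosses mark CpGs with no call in any library. The colours meet at or near 0% at the start (2 methylated of 74 calls in *Bcl2a1b*, 0 in the others) and part on both sides, least in *Bcl2a1d*.

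Reads can be placed on a copy only where the copies differ. Of all windows of 75 bases, the read length, over each promoter CpG after conversion in the computer, a mean of 43.0% occurred once in the genome for *Bcl2a1a*, 49.9% for *Bcl2a1b* and 43.7% for *Bcl2a1d*. The other members were at 99.7% to 100%, except *Bid* at 90.0%. Accordingly 6, 2 and 6 promoter CpGs of the 3 copies had no call in any library. CpGs with at least 50% unique windows had a mean of 29.0, 18.2 and 20.8 calls over all libraries, against 3.73, 8.36 and 3.38 for the others.

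On the CpGs with at least 50% unique windows alone (6, 11 and 10 CpGs), the difference was 69.2 points for *Bcl2a1a*, 66.2 for *Bcl2a1b* and 24.2 for *Bcl2a1d*, so it was as large there. Of 27 aligned CpG positions, 18 were present in all 3 copies. On these 18 alone, *Bcl2a1a* was at 17.1% and 4.35% in Tet2+/+ and at 64.9%, 82.4% and 66.7% in Tet2-/-. *Bcl2a1b* was at 2.78% and 9.09% against 50%, 46.0% and 55.6%, and *Bcl2a1d* at 5% and 12.8% against 22.2%, 32.0% and 35.5%. These levels weigh each position by its calls, and the calls of the copies fell on different positions. At 14 bp after the start, Tet2-/- had 0 methylated of 5 calls in *Bcl2a1a* and 0 of 16 in *Bcl2a1b*. At -685 bp *Bcl2a1a* had 0 calls, and *Bcl2a1b* had 1 methylated of 16 in Tet2-/-. The order of the copies on these 18 positions is thus not a comparison of equally covered CpGs. Depth in the 500 kb on either side of the copies was 0.546 to 0.649 of each library's mean, in both genotypes.

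**Figure D3:**
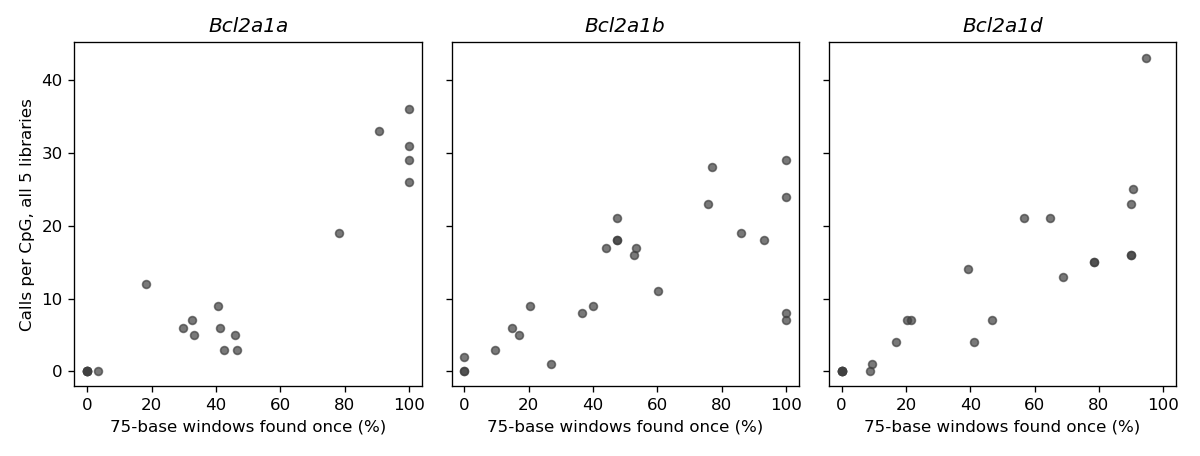
Number of calls per promoter CpG over all 5 libraries against the share (%) of the 75-base converted windows over it that occur once in the genome, for each *Bcl2a1* copy; each point is 1 CpG. CpGs without unique windows have no or few calls, and the calls of each copy come mostly from CpGs at 50% or more.

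The gene bodies of the copies followed their promoters in part. *Bcl2a1a* was at 56.9% and 15.9% in the Tet2+/+ libraries, which lay far apart, and at 80.3%, 81.6% and 70.7% in Tet2-/-. The difference of means was 41.1 points, and 61.6 without library 23 or 20.6 without library 24. *Bcl2a1b* was at 28.8% and 27.7% against 73.0%, 55.2% and 73.3%, a difference of 39.0 points. *Bcl2a1d* overlapped, at 60.9% and 55.1% against 60.3%, 70.0% and 65.1%, a difference of 7.13 points. That difference was 4.24 without library 24 and 4.68 without library 7. It was 2.67 as the mean of single CpGs and 2.17 after subtraction of the median difference of all bodies.

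Beyond 1000 bp from the start, introns and exons were read separately. Introns held 15 CpGs in *Bcl2a1a* and 23 in each of the other copies. In *Bcl2a1a* introns were at 56.8% and 6.06% against 80.9%, 81.4% and 78.9%, and in *Bcl2a1b* at 38.7% and 42.3% against 69.6%, 63.6% and 83.3%. The introns of *Bcl2a1d* were already at 81.3% and 86.4% in Tet2+/+, against 90.5%, 95.2% and 85.7%. The exons there held 2 CpGs in each of *Bcl2a1a* and *Bcl2a1b*, at 71.4% to 100% in all libraries.

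Promoters whose levels over the 5 libraries were nearest to those of a copy were ranked by the root mean square difference. For *Bcl2a1a* they were *4922502D21Rik* (9.25 points), *A530032D15Rik* (10.7) and *Elmo3* (11.2). For *Bcl2a1b* they were the overlapping *Gm29094* (2.37), *Slc27a1* (5.91) and *Slc5a5* (9.14), and for *Bcl2a1d* *Dmpk* (4.57), *L3mbtl4* (5.02) and *Rab7b* (5.13). Between the copies themselves the value was 17.7 for *Bcl2a1a* and *Bcl2a1b*, 21.8 for *Bcl2a1b* and *Bcl2a1d* and 34.5 for *Bcl2a1a* and *Bcl2a1d*. These are descriptions over 5 libraries, which share depth and overall level over all genes.

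A search of the promoter windows of 300 bases that RefSeq gives for GRCm38 (250 before to 50 after the start) covered all 10 members. The letters GAGGAAGT, a form of the site of PU.1, a myeloid transcription factor, were found on either strand in all 3 copies and in *Bak1*, against 3.20% of all 32851 windows. TTGCNNAA, a form of the C/EBP site, was found in *Bid* only (10.8% of all windows), and the NF-kB site in 1 of 3 windows of *Bcl2l1* (8.46%). The copies were 95.0% to 99.1% identical within 1000 bp of the TSS, so their 3 PU.1 matches are not independent of each other. These are matches of letters and not measured binding.

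Of the guardians, *Bcl2* (chr1:106538178-106714274, minus strand), the founding member, had a promoter at 3.33% and 3.05% in Tet2+/+ and at 1.11%, 2.30% and 1.81% in Tet2-/-. The groups did not overlap, with a difference of -1.45 points (adjusted p = 0.376, edgeR's quasi-likelihood test with Benjamini-Hochberg adjustment over 19455 promoters). Weighing equally each CpG a library called, the difference was -0.164 points, and at 500 bp on each side of the TSS it was -0.320. A second annotated start, 1095 bp into the gene, was at 5.11% and 3.56% against 0.880%, 1.51% and 1.74%.

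Further into *Bcl2* the groups parted more. From 1001 to 5000 bp after the start, a stretch examined after its values were seen and therefore not tested, 79 CpGs were at 25.9% and 31.3% in Tet2+/+ and at 10.3%, 17.5% and 14.6% in Tet2-/-. Every Tet2-/- library was lower, which 1.14% of 20612 genes showed in this stretch, while 47.3% showed the opposite. Weighing equally the 61 CpGs called in all libraries gave 28.9% and 38% against 13.8%, 27.9% and 19.3%, still without overlap. Along the gene, 35 windows of 5000 bp were read. The first, which starts at the TSS and holds 141 CpGs, had the largest loss (17.7% against 8.79%). In 8 windows every Tet2-/- library was above, and the greatest gain was 15.6 points. The share of all such windows with every Tet2-/- library above was not counted, while 46.0% of whole gene bodies showed it.

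*Bcl2l1* (chr2:152780668-152831728, minus strand), which encodes BCL-XL and a shorter form by splicing, had a promoter at 11.5% and 9.16% against 8.85%, 6.25% and 7.54%. The difference was -2.77 points (adjusted p = 0.508 by the same edgeR test). It was 0.636 points with equal weight for each CpG a library called, so that its sign rests on the weighting. The pooled difference was -1.62 without library 23, -3.91 without library 24 and -1.55 at 500 bp on each side of the TSS. A second annotated start of *Bcl2l1* overlapped, at 16% and 12% against 13.9%, 6.38% and 14.9%. From 1001 to 5000 bp after the start it was at 68.1% and 67.1% against 58.5%, 45.5% and 63.0%. With equal weight for the CpGs called in all libraries, these groups overlapped, at 59.6% and 63.9% against 53.8%, 44.4% and 60.9%.

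*Mcl1* (chr3:95658788-95663176, plus strand), whose product is short-lived and needed by myeloid progenitors, had the densest promoter, with 163 CpGs. It was at 2.24% and 2.54% against 1.19%, 2.12% and 2.60%, a difference of -0.419 points (adjusted p = 0.739, same test), and of -0.0305 without library 5, -0.269 without library 24 or -0.733 without library 8. Its gene body was at 4.02% to 4.39% in all 5 libraries. Its exons beyond 1000 bp did not overlap, at 11.9% and 17.4% against 22.5%, 30.3% and 20%.

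Of the effectors, the promoter of *Bax* (chr7:45461697-45466898, minus strand) was at 23.1% and 11.9% against 23.9%, 21.0% and 19.7%, a difference of about 4 points (adjusted p = 0.633). The Tet2+/+ libraries differed more from each other than the group means. The difference was 9.64 points without library 23, -1.64 without library 24 and 1.41 at 500 bp on each side of the TSS. Its core was nearly unmethylated, with 3 of 217 calls within 100 bp in Tet2+/+ and 7 of 431 in Tet2-/-. The groups overlapped within 100 bp and from 101 to 500 bp into the gene, but not in some stretches at the edges. The share of all genes with this pattern in those stretches was not counted. From 501 to 1000 bp into the gene, 11 CpGs were at 75.0% and 64.0% against 83.7%, 91.0% and 82.4%, and from 500 to 101 bp upstream, 6 CpGs were at 3.57% and 5.56% against 9.09%, 27.3% and 10.0%.

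*Bak1* (chr17:27019810-27029009, minus strand) had a promoter at 16.0% and 21.6% against 22.5%, 32.9% and 17.4%, a difference of 5.44 points (adjusted p = 0.641), and of 1.14 without library 7, 2.62 without library 23, 8.25 without library 24 or 8.85 without library 8. It had no CpG within 100 bp of its annotated start, and its 27 CpGs from 101 to 1000 bp downstream were at 0.571% to 3.8% in all libraries. Its gene body was the only one of the 7 with every Tet2-/- library above, at 56.4% and 48.9% against 58.9%, 67.2% and 57.8%. The difference was 8.61 points (adjusted p = 0.184 over 20715 gene bodies, edgeR). It was 4.86 without library 24, 5.66 without library 7 and 3.66 after subtraction of the median difference of all bodies. The stretch from 1001 to 5000 bp after the start differed most among the 7, at 36.9% and 25.6% against 55.2%, 64.5% and 45.4%. Weighing equally the 47 CpGs called in all libraries gave 45.4% and 32.1% against 50.5%, 66.4% and 56.2%.

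Of the BH3-only genes, *Bcl2l11* (chr2:128126038-128162547, plus strand), which encodes BIM, had a promoter at 2.06% and 0.712% against 1.38%, 3.54% and 1.99% (difference 0.918 points, adjusted p = 0.507). The difference was 0.245 without library 24, 0.300 without library 7, 1.38 without library 5 and 1.59 without library 23. Its sign turned at 500 bp on each side of the TSS (-0.241) and after subtraction of the median difference of all promoters (-1.30). The upstream flank from 5000 to 1001 bp was low as well and without overlap, at 9.05% and 9.66% against 13.3%, 15.4% and 15%. How many genes show this pattern in that flank was not counted. In the gene, the window from 10000 to 14999 bp after the start had the largest gain of its 7 windows, at 50.1% and 44.7% against 62.7%, 73.4% and 64.6%.

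*Bid* (chr6:120891930-120916853, minus strand), whose product is cut by caspase 8 to link death receptors to mitochondria, had the lowest promoter adjusted p of the 7, 0.301 by edgeR. Its promoter was at 3.29% and 2.16% against 1.42%, 0.701% and 1.51%, a difference of -1.52 points. This difference was -0.947 without library 23, -0.235 at 500 bp on each side of the TSS and -0.0749 on CpGs called in all 5 libraries. Its body was at 55.4% and 54.2% against 54.0%, 62.9% and 56.1%, a difference of 2.88 points that was 0.266 without library 7 and 4.71 without library 5. Beyond 1000 bp of the start the groups did not overlap, at 60.8% and 59.7% against 62.7%, 71.1% and 62.2%. With equal weight for CpGs called in all libraries they did, at 60.5% and 62.9% against 62.5%, 72.1% and 63.6%. The share of all genes without overlap in this part was not counted.

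**Figure D4:**
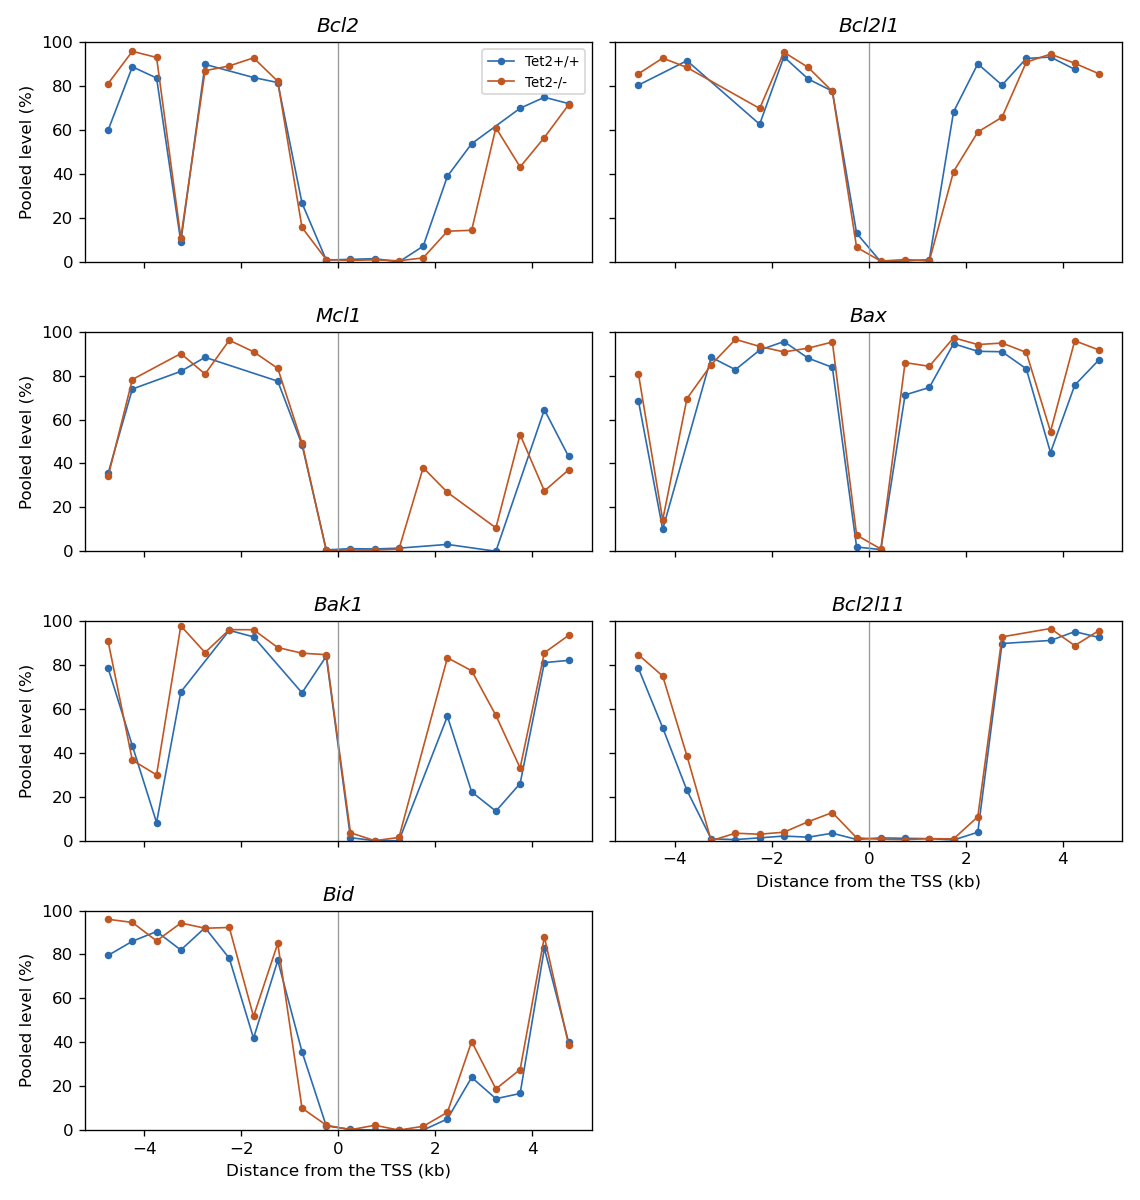
Pooled methylation level (%) of the 7 other members in bins of 500 bp, from 5 kb upstream to 5 kb downstream of the start, for Tet2+/+ (blue, 2 libraries) and Tet2-/- (orange, 3 libraries). A bin with under 20 calls in a group is left out for that group. Both lines fall to or near 0% just after the start of each gene. Pooled from 1001 to 5000 bp, Tet2-/- is lower in *Bcl2* (14.1% against 28.5%) and higher in *Bak1* (57.0% against 30.8%). The *Bcl2* bin from 1000 bp goes the other way (0.483% against 0%).

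Counted together, 0 of the 7 promoters and 0 of the 7 gene bodies passed the threshold of 0.05, where 1.07% of 19455 promoters and 15.5% of 20715 gene bodies did, most of them higher in Tet2-/- (1.06% and 15.5%). Every Tet2-/- library was above in 1 of the 7 bodies and below in 0, beside 46.0% and 1.46% of all bodies. Unadjusted p-values were also above 0.05 in all 14 regions. The likelihood ratio test of edgeR and limma called none of them either. Adjusted p-values ranged from 0.301 to 0.739 in promoters and from 0.184 to 0.994 in bodies. The median difference was -0.419 points in the 7 promoters and 0.145 in the 7 bodies, beside 2.22 and 4.95 over all promoters and bodies tested. These bodies include the 1000 bp after the start, which the promoters hold as well. Beyond it every Tet2-/- library was above in *Bax* (6.05 points), *Bak1* (10.4) and *Bid* (5.09). The groups overlapped in *Bcl2* (1.74), *Bcl2l1* (-0.127), *Mcl1* (5.75) and *Bcl2l11* (0.918). With equal weight for CpGs called in all libraries, every Tet2-/- library was above in *Mcl1*, *Bax*, *Bak1* and *Bcl2l11*. The share of all genes was not counted. Depth differed for 2 of the 7 members, since Tet2-/- library 5 had 0.829 of its mean depth on chromosome 2. Around *Bcl2l1* and *Bcl2l11* its depth was 0.795 and 0.786 of the mean, against 1.12 to 1.25 in the other libraries. Its levels lay within the range of the other Tet2-/- libraries in the promoter of neither gene, being the highest for *Bcl2l1* and the lowest for *Bcl2l11*, and the part of the depth in this was not tested.

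Exons and introns beyond 1000 bp of the start gave a mixed picture. Exons had every Tet2-/- library above in *Mcl1*, *Bak1* and *Bid*, as in 49.7% of 19023 genes. They had every Tet2-/- library below in *Bcl2* (44.8% and 47.6% against 33.0%, 41.2% and 35%), *Bcl2l1* (63.7% and 65.5% against 53.1%, 39.9% and 59.8%) and *Bcl2l11* (68.0% and 73.5% against 66.7%, 58.6% and 64.6%), as in 1.13% of genes. With equal weight for each CpG called in all libraries, none of these 3 was without overlap, and the mean difference was -6.70 points in *Bcl2*, -9.66 in *Bcl2l1* and 2.75 in *Bcl2l11*. Introns were above in *Bcl2*, *Bax*, *Bak1*, *Bcl2l11* and *Bid*, beside 58.6% of 17868 genes, and below in 0 of the 7, beside 0.381%. With equal weight, the intron groups of *Bcl2* (80.4% and 79.3% against 80.1%, 87.3% and 81.8%) and *Bid* (55.7% and 58.2% against 57.3%, 67.9% and 58.3%) overlapped.

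**Figure D5:**
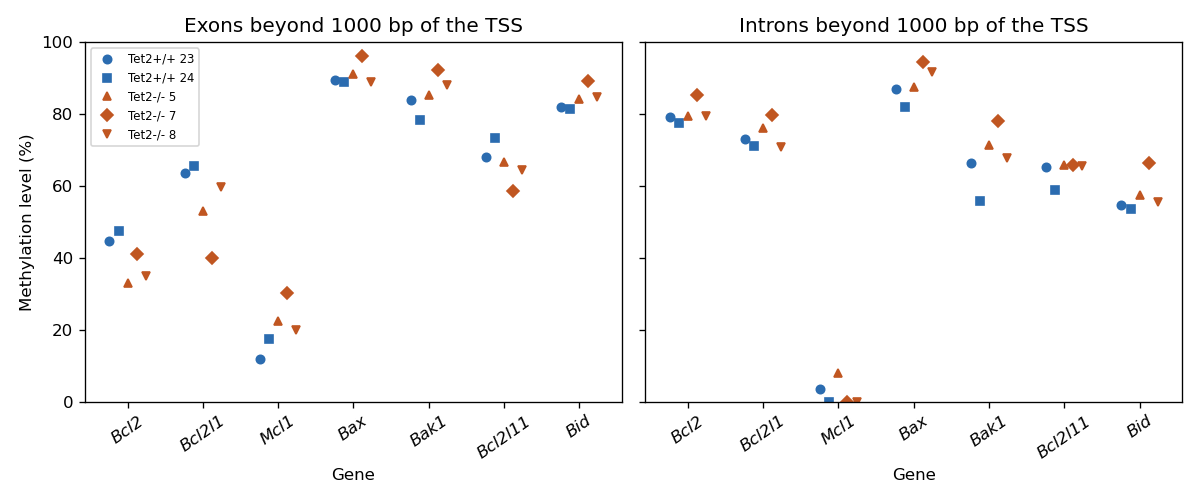
Methylation level (%) of exons (left) and introns (right) beyond 1000 bp of the start in the 7 other members; each point is 1 library, blue for Tet2+/+ and orange for Tet2-/-. Exons of *Bcl2*, *Bcl2l1* and *Bcl2l11* are lower in each Tet2-/- library, and introns of *Mcl1* are at 0% to 8% in all libraries.

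The other genes of the pathway were 35, from further BCL2 relatives through caspases and inhibitors of apoptosis to death receptors. Their promoters gave 0 calls in 35 tested by edgeR's quasi-likelihood test, 4 at an unadjusted p under 0.05, and 0 by the likelihood ratio test and by limma. The median difference was 1.26 points, and 13 promoters had every Tet2-/- library above and 4 below, beside 32.8% and 4.05% of all promoters, of which 1.07% were called. The largest was that of *Hrk*, a BH3-only gene, at 58.0% and 45.1% against 67.3%, 72.1% and 68.1% (adjusted p = 0.237). The smallest was that of *Xiap*, an inhibitor of caspases on the X chromosome, at 87.5% and 88.4% against 84.7%, 89.7% and 73.5% (adjusted p = 0.770).

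Of 34 gene bodies tested, 2 were called and both rose, a share of 5.88% beside 15.5% over all bodies. *Bok*, an effector related to *Bax*, was at 45% and 42.7% against 50.2%, 56.9% and 62.0%, a difference of 12.5 points (adjusted p = 0.0320, edgeR), the largest of the 34. *Bcl2l15*, a less known family member, was at 66.2% and 70.8% against 75.9%, 85.2% and 76.5%, a difference of 10.7 points (adjusted p = 0.0223, edgeR). Limma called 0, and without library 23 or without library 24 edgeR called 0. The smallest difference was that of *Pmaip1*, which encodes the BH3-only protein NOXA, at -3.71 points (adjusted p = 0.614). The median was 4.23 points.

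*Bcl2a1c*, a further copy on chromosome 9 (chr9:114330135-114330578), belonged to this list. Its promoter was at 36.7% and 29.7% against 45.4%, 68.3% and 38.6%, a difference of 17.5 points (adjusted p = 0.331). CpGs within 100 bp of its annotated start had 7 methylated of 28 calls in Tet2+/+ and 25 of 51 in Tet2-/-. This start was not aligned with those of the other copies, so here too equal distances need not be matching bases. Its CpGs at -148, -142, -129 and -116 bp are spaced like those 27, 33, 46 and 59 bp into *Bcl2a1d*. Those at 32 and 92 bp are spaced like those 207 and 267 bp into *Bcl2a1d*. The 5 CpGs from -169 to -116 bp of *Bcl2a1c* had no methylated call in Tet2+/+, and in Tet2-/- 1 of 8 at -148 bp and 1 of 5 at -129 bp, both in library 7. Its gene body, with 18 calls in the shallowest libraries, was too thinly covered for the fit and was at 75% and 27.8% against 81.8%, 97.1% and 77.8%.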

How the data were processed

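The authors made bisulfite libraries from genomic DNA, trimmed reads with Trim Galore 0.4.3, aligned them to GRCm38 with Bismark 0.19.1 and Bowtie2 in non-directional mode and removed duplicates by position. The deposited values are counts of methylated and unmethylated calls per CpG cytosine, not normalized. Calls of both strands were added, and a level is the methylated over all calls of a region. Intervals and limits of a count of 0 (3 counts) cover counting error only. Promoters (TSS plus and minus 1000 bp, GENCODE vM21) and gene bodies, if each library had 20 or more calls there, were fitted with edgeR 4.0.16 in R 4.3.3 (quasi-likelihood test on both counts, a coefficient per library, two-sided, Benjamini-Hochberg, threshold 0.05). The fit was also run on simulated counts. These had no differences in overall level between libraries, so they do not cover the differences seen here. With 2 against 3 libraries an exact permutation test has 10 arrangements and a smallest p of 0.1, and none was used. The copies were aligned with mafft 7.526, and 75-base windows were counted in the converted genome. Members and lists were chosen with earlier results of these data known. All members are named; of the pathway list, called genes and the largest and smallest difference, and for each copy the 3 nearest promoters. No batch is given in the labels. Alternatives were other minimums (10 and 50 calls), the likelihood ratio test, limma 3.58.1 with and without centring, TSS plus and minus 500 bp, thinning, unique CpGs, other weights, and each library left out. The sequence of the upstream flanks of the copies is not reported here.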

Additional observations from a re-analysis of the deposited data

How the results depend on the processing

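Depth limits single CpGs and the *Bcl2a1* starts. A copy had as few as 2 calls in a library within 100 bp of the TSS, and as few as 1 over the printed bases. Among the members other than the copies, no promoter or gene body passed the threshold under an alternative with a test (other minimums, the likelihood ratio test, limma with and without centring, TSS plus and minus 500 bp, and each library left out). Thinning, other weights, CpGs called in all 5 libraries and the gene without its TSS region gave values with no test. The promoter differences of the copies kept their sign throughout, which is no support for them. The copies were picked for the gain of *Bcl2a1a*. With every Tet2-/- library above both Tet2+/+ libraries, leaving a library out cannot turn the sign. No paired analysis was made, because the sources used here state no pairing of the libraries. Calls over all promoters (209) became 915 with the likelihood ratio test, 77 with limma, 9 with limma after subtraction of each library's median and 105 at TSS plus and minus 500 bp, and ranged from 0 (without library 24) to 293 (without library 5) when a library was left out. Calls over all gene bodies (3221) became 117 with limma and 1 after centring, and ranged from 88 (without library 24) to 3364 (without library 8). The 2 calls of gene bodies in the pathway list became 0 with limma and 0 after centring, and ranged from 0 to 2. Leaving out a library gave 20.6 to 61.6 points for the *Bcl2a1a* body. The *Bcl2a1b* promoter difference (51.9 points) was 42.6 on CpGs called in all 5 libraries, 60.4 as the mean of single CpGs and 66.2 on CpGs with at least 50% unique windows. The *Bcl2a1b* body (39.0) was 26.2 without the CpGs within 1000 bp of the TSS and 47.6 on unique CpGs, and the *Bcl2a1d* body (7.13) was 2.17 after centring and 2.67 as the mean of single CpGs. For single members, centring means that the median difference of all regions of the same kind was subtracted from the difference. Signs then turned for the bodies of *Bcl2* (-3.65), *Mcl1* (-4.81) and *Bid* (-2.07). The sign also turned for the promoter of *Bcl2l11* (-1.30, and -0.241 at TSS plus and minus 500 bp). The *Bax* body (-2.82) turned to 6.05 without the CpGs within 1000 bp of the TSS and to 5.03 as the mean of single CpGs. The *Bcl2l11* body (-0.0561) turned to 0.918, 3.67 and, on CpGs called in all 5 libraries, 0.539. As the mean of single CpGs the *Bcl2l1* promoter (0.636) and body (0.604) turned, and the *Mcl1* body (0.145) moved to 5.75 without the CpGs near the TSS. Leaving out a library turned the *Bcl2* body (-0.418 to 2.35), *Bcl2l1* body (-1.47 to 0.737), *Bax* promoter (-1.64 to 9.64), *Bax* body (-7.99 to 2.35) and *Bcl2l11* body (-1.61 to 1.5), none of them called. Where no cause is named here, the cause was not tested. The equal weighting of exon CpGs was chosen after seeing the data.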
